A study of Mus musculus with 10 samples.

Results

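The epithelial ETS and grainyhead transcription factors described here are 7 genes: Ehf, Elf3, Elf5 and Spdef of the ETS family, and Grhl1, Grhl2 and Grhl3 of the grainyhead family. They were chosen from the fall of Ehf in Jag1+/-Rfng+/- portal tracts, to ask whether it extends to related factors, and each was read by its probe set with a single gene symbol. They are 7 of the 22180 genes measured. Portal tracts carry the bile ducts of the liver together with branches of the portal vein and hepatic artery. Tracts of 1-week-old mice, 12 to 20 per replicate, were collected by laser microdissection of frozen tissue, and their RNA was hybridized to single-colour arrays. The 5 control samples are of strain C57Bl/6J. The 5 Jag1+/-Rfng+/- samples, whose labels name no strain, are heterozygous at Jag1, a gene for a Notch ligand, and at Rfng, the gene for Radical fringe, which modifies Notch receptors with sugar. The kind of mutant allele is not stated, and nor is whether each sample was a separate animal, so p-values reflect only how these samples vary, which may be technical.

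Both families are known for work in epithelial cells. ETS factors bind DNA at sites with a GGAA core, and Ehf, Elf3 and Elf5 form an epithelial subgroup found in lining and glandular epithelia, while Spdef is best known in goblet and other secretory cells. Grainyhead factors control genes for cell junctions, surface proteases and the epidermal barrier, and Grhl2 is known as a regulator of Cdh1 and claudin genes in simple epithelia. In portal tracts the cells in which such factors would be looked for are cholangiocytes, the epithelial cells of the bile ducts.

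The arrays were alike, with medians of 3.22 to 3.30 on the log2 scale. Jag1+/-Rfng+/- replicate 5 stood apart, correlating with the other arrays at 0.956 to 0.963 across probe sets, against at least 0.969 among the rest, and its sample name carries the unexplained suffix excl. Member differences are therefore also given without it. Since no detection call was at hand, the reading of a gene that is off was taken from 1394 olfactory and vomeronasal receptor genes, whose single values had a 95th percentile of 3.20. Values at or under 3.20 are called the range of absent genes, and 42% of all genes had a mean within it. Y-linked genes on the 4 arrays high for Xist read 1.82 to 2.84, also within it. Of the cell type markers, all 12 hepatocyte, all 11 portal fibroblast and all 6 endothelial genes measured had means above 3.20, as did 10 of 12 biliary genes. The biliary channel gene Cftr and the secretin receptor gene Sctr read within the range of absent genes on every array. Control arrays averaged 5.72 ± 0.93 for Jag1 and 4.82 ± 0.20 for Rfng, and Jag1+/-Rfng+/- arrays 4.39 ± 0.63 and 4.36 ± 0.16 (mean ± SD of log2 values, n = 5 each).

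Upstream sequence is shown for Elf3, Spdef and Grhl3, because Elf3 had the lowest unadjusted p of the 6 tested members and Spdef and Grhl3 are the members that read above the range of absent genes on all arrays. Each run gives the 250 bases before the RefSeq start, 5′ to 3′ on the gene's strand, in build GRCm38.p6, with capitals marking GGAA, the ETS core, and AACCGG, a grainyhead core, on either strand. All 3 genes lie on the minus strand, at chr1:135258473-135258722 for Elf3, chr17:27728952-27729201 for Spdef and chr4:135573633-135573882 for Grhl3.
Elf3: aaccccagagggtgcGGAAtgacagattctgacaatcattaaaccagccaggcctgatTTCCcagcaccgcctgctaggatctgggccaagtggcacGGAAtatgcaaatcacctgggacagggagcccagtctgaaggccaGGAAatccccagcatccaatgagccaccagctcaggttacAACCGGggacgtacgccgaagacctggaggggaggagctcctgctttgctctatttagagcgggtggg
Spdef: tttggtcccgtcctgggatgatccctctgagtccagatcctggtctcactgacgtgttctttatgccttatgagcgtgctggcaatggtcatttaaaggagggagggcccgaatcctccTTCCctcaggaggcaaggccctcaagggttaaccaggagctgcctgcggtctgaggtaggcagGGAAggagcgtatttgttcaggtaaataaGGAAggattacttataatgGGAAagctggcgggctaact
Grhl3: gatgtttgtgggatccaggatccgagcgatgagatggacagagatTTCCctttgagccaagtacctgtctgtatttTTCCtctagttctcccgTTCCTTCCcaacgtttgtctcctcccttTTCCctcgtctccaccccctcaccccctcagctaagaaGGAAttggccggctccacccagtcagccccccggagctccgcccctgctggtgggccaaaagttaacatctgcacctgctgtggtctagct

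The Elf3 window held 4 matches to GGAA and 1 to AACCGG, which began 68 bases before the start. Spdef had 4 matches to GGAA and Grhl3 had 6, and neither had AACCGG in this window. The longer ETS motif CCGGAA, which contains GGAA, had 0 matches in all 3. Of 32851 RefSeq windows of the same length 93.4% held GGAA, 12% CCGGAA and 5.62% AACCGG, so a GGAA match sets these genes apart from few others. For Elf5 and Grhl1 the table holds several starts each, and none of these windows had AACCGG or CCGGAA. Ehf and Grhl2 had no entry. A match is a run of letters and says nothing of binding.

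Ehf was lower in every Jag1+/-Rfng+/- sample than in any control. It encodes the ETS homologous factor of epithelial cells (probe set 17388774, chromosome 2). The 5 controls read 4.80, 5.16, 5.60, 4.22 and 3.64 in the order of replicates 1 to 5. The 5 Jag1+/-Rfng+/- arrays read 3.07, 3.17, 2.62, 2.75 and 2.50. Controls 2 and 3 were high, control 5 was the lowest of its group, and all mutant values lay within the range of absent genes, as no control value did. The means were 4.68 ± 0.77 and 2.82 ± 0.29 (SD, n = 5 each), a difference of -1.86 log2, the 8th lowest of all genes. Because the members were chosen from this fall, it is given as a description with no test. With the mutant values in that range, the fold of 3.63 is not an upper bound. Groups that do not overlap in the lower direction were found for 0.766% of all genes, and Ehf is among them, as the choice of members around its fall made likely. The groups of the other 6 members overlapped. Without Jag1+/-Rfng+/- replicate 5 the difference was -1.78, and the 7 arrays (3 control, 4 Jag1+/-Rfng+/-) whose sample names share a number of unstated meaning, a possible batch, gave -2.23. The other numbers occur on 1 array each.

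**Figure D1:**
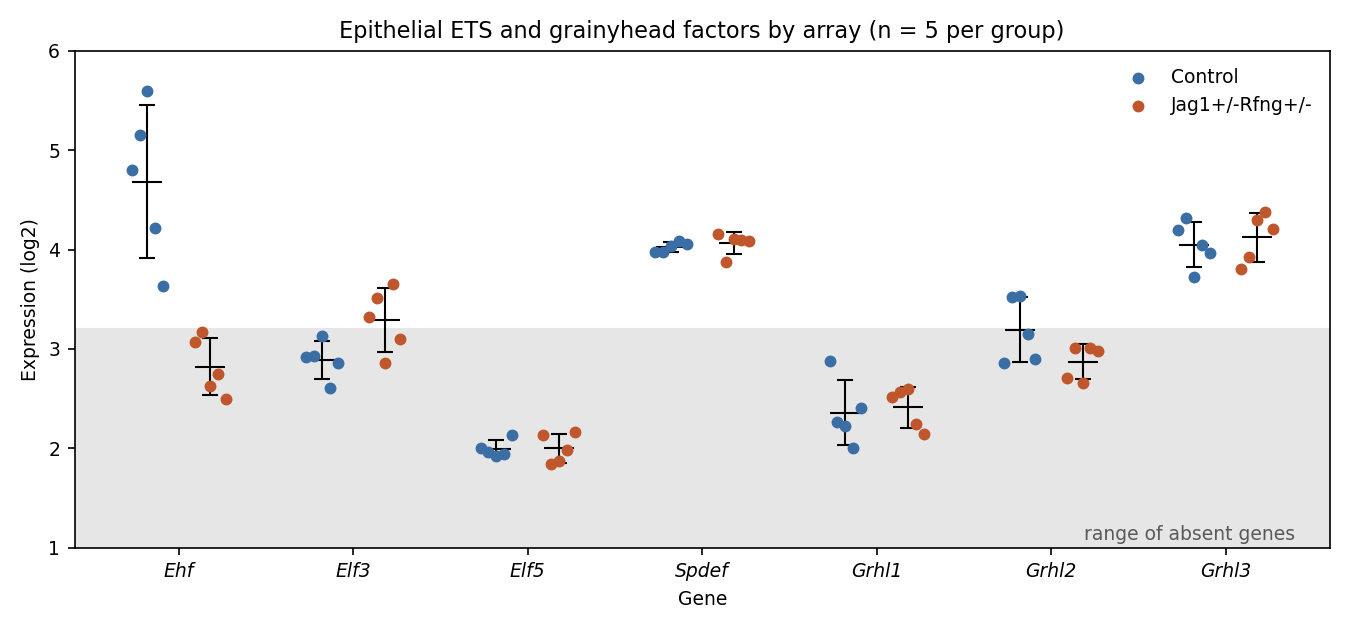
Expression (log2) of the 7 members on each array, with control in blue and Jag1+/-Rfng+/- in orange. Points are arrays, in replicate order from left to right, bars are the mean ± SD (n = 5 per group), and grey marks values at or under 3.20; the Ehf groups do not overlap, and all other members overlap. Different probe sets are not on a common scale, so only the groups within a gene can be compared.

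The other 6 members were tested, and none passed. By limma, adjusted over all genes, 0 of the 6 tested members passed 0.05, a threshold passed by 0.00902% of all genes. At an unadjusted p under 0.05 there was 1 of 6, Elf3, and it lay in the opposite direction to Ehf. Of all genes 6.76% had an unadjusted p under 0.05, made up of 2.98% higher and 3.79% lower. Of the 6, 1 averaged lower and 5 higher, with a median difference of 0.05 log2, beside -0.01 over all genes and 51.5% of all genes lower.

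Elf3, another ETS factor specific to epithelia (probe set 17227266, chromosome 1), read 2.92, 2.93, 3.13, 2.60 and 2.86 in controls 1 to 5. In Jag1+/-Rfng+/- replicates 1 to 5 it read 3.32, 3.52, 2.86, 3.66 and 3.10. All controls lay within the range of absent genes, and replicates 1, 2 and 4 of Jag1+/-Rfng+/- lay above it. The groups overlapped, through Jag1+/-Rfng+/- replicates 3 and 5. The means were 2.89 ± 0.19 and 3.29 ± 0.32 (SD, n = 5 each), and the difference was 0.40 ± 0.16 log2 (SE), with a 95% interval of 0.06 to 0.74. It did not pass when adjusted over all genes (limma adjusted p = 0.660), and the exact two-sided permutation test of the group means gave p = 0.0714. Without Jag1+/-Rfng+/- replicate 5 the difference was 0.45 (limma adjusted p = 0.724). Within the 7 arrays with the shared number it was 0.39 (exact permutation p = 0.257).

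Elf5, an ETS factor known for the mammary alveolus and the placenta (probe set 17373739, chromosome 2), read 1.93 to 2.14 in controls, with a median of 1.97, and 1.84 to 2.17 in Jag1+/-Rfng+/-, with a median of 1.99. Every array lay within the range of absent genes. The difference was 0.0048 ± 0.098 log2 (SE), with a 95% interval of -0.21 to 0.22 (limma adjusted p = 0.996). Without Jag1+/-Rfng+/- replicate 5 it was -0.036.

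Elf5 lies close to Ehf on chromosome 2, with 2 measured genes between them in the RefSeq order. Those genes, A930006I01Rik and BC016548, differed by 0.06 and -0.07 log2 and read within the range of absent genes. On the other side of Ehf, Apip and Pdhx, which encode a methionine salvage enzyme and a component of the pyruvate dehydrogenase complex, differed by -0.24 and -0.29 (limma adjusted p = 0.833 and 0.782). Beyond Elf5, the catalase gene Cat and Abtb2 differed by -0.21 and -0.01 (limma adjusted p = 0.863 and 0.991). Jag1, heterozygous in the Jag1+/-Rfng+/- samples, also lies on chromosome 2. As the labels of those samples name no strain, a difference of strain cannot be told apart from one of genotype.

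Spdef, the ETS factor of goblet cells (probe set 17342770, chromosome 17), was nearly flat. Controls 1 to 5 read 3.98, 3.98, 4.03, 4.08 and 4.06, and Jag1+/-Rfng+/- replicates 1 to 5 read 4.16, 3.88, 4.11, 4.10 and 4.08. Every array was above the range of absent genes and the groups overlapped, with Jag1+/-Rfng+/- replicate 2 the lowest of all. The difference was 0.04 ± 0.09 log2 (SE), with a 95% interval of -0.15 to 0.23 (limma adjusted p = 0.958). It was 0.03 without Jag1+/-Rfng+/- replicate 5.

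**Figure D2:**
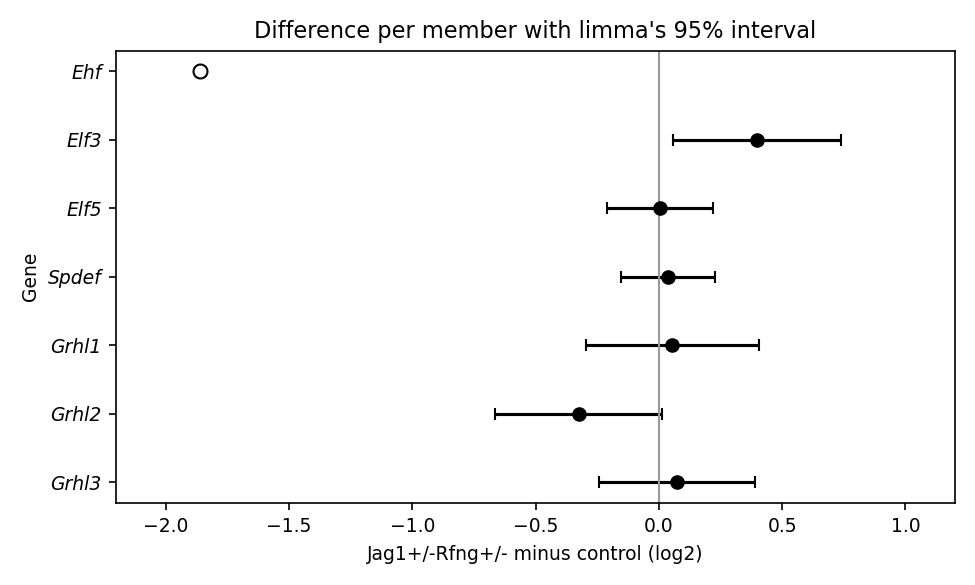
Difference between the group means of each member, Jag1+/-Rfng+/- minus control (log2, n = 5 per group). Filled points carry limma's 95% interval, and the open point is Ehf at -1.86, shown without an interval because the members were chosen from it; the lowest bound of the other 6 is -0.66, for Grhl2.

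Of the grainyhead genes, Grhl2 was the one member besides Ehf that averaged lower in Jag1+/-Rfng+/-, and this did not pass the test. Grhl2 encodes the grainyhead factor of simple epithelia (probe set 17311104, chromosome 15). Controls 1 to 5 read 2.86, 3.53, 3.53, 3.15 and 2.90, and Jag1+/-Rfng+/- replicates 1 to 5 read 2.70, 3.01, 2.65, 3.01 and 2.98. Controls 2 and 3, the arrays with the highest Ehf, were the only ones above the range of absent genes, and controls 1 and 5 lay among the Jag1+/-Rfng+/- values. The difference was -0.32 ± 0.16 log2 (SE), from 3.19 ± 0.32 to 2.87 ± 0.18 (SD, n = 5 each), with a 95% interval of -0.66 to 0.01 (limma adjusted p = 0.743). The exact permutation test gave p = 0.0952, two-sided. Without Jag1+/-Rfng+/- replicate 5 the difference was -0.35 (limma adjusted p = 0.802). Within the 7 arrays with the shared number the groups did not overlap, at -0.49 (exact permutation p = 0.0286, the smallest that 3 against 4 arrays can give, and limma adjusted p = 0.823). The share of all genes whose groups do not overlap in those 7 arrays was not counted. Without Jag1+/-Rfng+/- replicate 5 those arrays gave -0.51 (exact permutation p = 0.1, the smallest for 3 against 3).

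Grhl3, known for closure of the neural tube and the skin barrier (probe set 17431478, chromosome 4), read 4.19, 4.31, 3.72, 4.05 and 3.96 in controls 1 to 5. It read 3.80, 3.92, 4.30, 4.38 and 4.21 in Jag1+/-Rfng+/- replicates 1 to 5. All arrays were above the range of absent genes, and the groups overlapped over most of their range. The difference was 0.07 ± 0.14 log2 (SE), with a 95% interval of -0.24 to 0.39 (limma adjusted p = 0.944), and 0.05 without Jag1+/-Rfng+/- replicate 5. Grhl1, a regulator of desmosomal cadherin genes in skin (probe set 17274513, chromosome 12), read 2.01 to 2.88 in controls, with a median of 2.26, and 2.15 to 2.60 in Jag1+/-Rfng+/-, with a median of 2.51. Every value lay within the range of absent genes. The difference was 0.06 ± 0.16 log2 (SE), with a 95% interval of -0.29 to 0.40 (limma adjusted p = 0.965), and 0.12 without Jag1+/-Rfng+/- replicate 5.

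The members also differed in how their controls read against the range of absent genes. Ehf, Spdef and Grhl3 had all 5 controls above the range of absent genes, Grhl2 had 2, and Elf3, Elf5 and Grhl1 had 0. This split rests on the limit of 3.20. At the 99th percentile of the receptor values, 5.03, 6 of the 7 members lay within the range on all arrays, Spdef and Grhl3 included. Ehf was the exception only through controls 2 and 3 (5.16 and 5.60), and its other controls, at 4.80, 4.22 and 3.64, lay within it. Where controls already read in that range, a small difference does not show whether expression changed.

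Ehf was set beside markers of the cells in the tracts. In bulk samples of this kind, fewer cells of a type and less RNA per cell cannot be told apart. The 12 measured biliary markers had a median difference of -0.62 log2, with 9 lower and 3 higher. By limma 6 had an unadjusted p under 0.05, all lower, beside 3.79% of all genes, and 0 passed when adjusted over all genes. The keratin genes Krt19 and Krt7 differed by -0.75 each and Epcam by -0.76. Sox9, a transcription factor of duct cells, differed by -0.93, and Tspan8, a membrane tetraspanin, by -1.42. Cd24a (the brighter of 2 probe sets) and Aqp1 differed by 0.03 and 0.15, but their positive sign rests on Jag1+/-Rfng+/- replicate 5. They read 11.08 and 8.22 there, against 9.47 to 9.81 and 7.06 to 7.37 on the group's other arrays. Their medians were lower in Jag1+/-Rfng+/- than in control, at 9.75 against 9.91 and 7.10 against 7.25. Without that replicate the median difference of the biliary markers was -0.45. Averaged per array and set relative to the control mean, the biliary markers lay between -0.27 and 0.38 in controls and between -0.90 and -0.21 in Jag1+/-Rfng+/-. Subtracting that average from Ehf left -0.78 to 0.53 in controls and -1.69 to -0.71 in Jag1+/-Rfng+/-, with an overlap only between control 5 and Jag1+/-Rfng+/- replicate 1. The members were chosen from the fall of Ehf, so this near-separation is a description only. The average also weighs all 12 markers alike, including Cftr and Sctr, which read within the range of absent genes on every array. It holds the high Cd24a and Aqp1 values of Jag1+/-Rfng+/- replicate 5 too, the array where Ehf minus the average was lowest (-1.69). With the biliary average as a covariate the Ehf difference was -1.16 and that of Grhl2 turned to 0.03 (limma adjusted p = 0.973). The difference of Elf3 under this covariate was 0.66 (limma adjusted p = 0.460).

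The portal fibroblast markers also averaged lower in Jag1+/-Rfng+/-, with a median difference of -0.79 log2 and 9 of 11 lower. By limma 7 of these markers had an unadjusted p under 0.05, all lower, beside 3.79% of all genes, and 0 passed when adjusted. Their average lay between -0.71 and 0.33 in controls and between -1.29 and -0.03 in Jag1+/-Rfng+/-. Array by array it followed the order of Ehf in part. Like Ehf it was highest on controls 2 and 3 (0.32 and 0.33) and lowest on Jag1+/-Rfng+/- replicate 5 (-1.29). It departed from that order at -0.71 on control 4, where Ehf read 4.22, and at -0.03 on Jag1+/-Rfng+/- replicate 4, where Ehf read 2.75. The biliary average departed too, being lowest on Jag1+/-Rfng+/- replicate 1 (-0.90), where Ehf read 3.07. With the portal fibroblast average as a covariate the Ehf difference was -1.49. Those of Elf3 and Grhl2 were 0.70 (limma adjusted p = 0.494) and -0.16 (limma adjusted p = 0.901). The 12 hepatocyte markers had a median difference of -0.03. The 5 smooth muscle markers had one of -0.37, the 6 endothelial markers 0.17, the 6 leukocyte markers 0.11 and the 4 mesothelial markers 0.05. Markers of squamous and glandular epithelium, where Elf5 and Grhl3 are at home, had a median difference of 0.07, and 1 of 5 averaged above the range of absent genes. The part of these cell types in the member differences was not tested. The covariate fits cannot divide it from genotype, because both marker averages themselves differ between the groups.

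Among controls, Ehf was high where Jag1 was high. Jag1 read 5.95, 6.59, 6.57, 4.59 and 4.90 on controls 1 to 5 and 3.75, 4.76, 4.70, 5.06 and 3.68 on Jag1+/-Rfng+/- replicates 1 to 5. Controls 4 and 5, lowest of their group for both genes, overlap the Jag1+/-Rfng+/- range for Jag1 but not for Ehf. Over the 10 deviations from the group means Ehf and Jag1 had r = 0.72 and rho = 0.83, and r = 0.62 without the 2 arrays farthest from the Ehf median, controls 3 and 5. Rfng, the other heterozygous gene, went the other way, with r = -0.76 and rho = -0.6, and r = -0.64 without controls 3 and 5. These r and rho values are descriptions over 10 arrays that share tissue composition. Controls weigh most in them, as all Jag1+/-Rfng+/- values of Ehf lay within the range of absent genes (SD 0.29, against 0.77 in controls). For the 12 biliary markers r over the deviations ran from -0.35 to 0.84. It was 0.84 for Sctr, whose values lay within the range of absent genes, 0.79 for Pkhd1, a gene of the primary cilium of ducts, 0.68 for Krt7 and 0.67 for Krt19. It was 0.54 for the anion exchanger gene Slc4a2, 0.50 for Epcam, 0.33 each for Sox9 and Cftr, 0.17 for Tspan8, 0.14 for Prom1, -0.12 for Cd24a and -0.35 for the water channel gene Aqp1. Without controls 3 and 5 the value for Pkhd1 was 0.35. Among the members it was 0.62 for Grhl2, which dropped to 0.27 without controls 3 and 5, 0.50 for Elf3 and 0.11 for Grhl1. It was -0.26 for Grhl3, -0.36 for Spdef and -0.45 for Elf5.

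**Figure D3:**
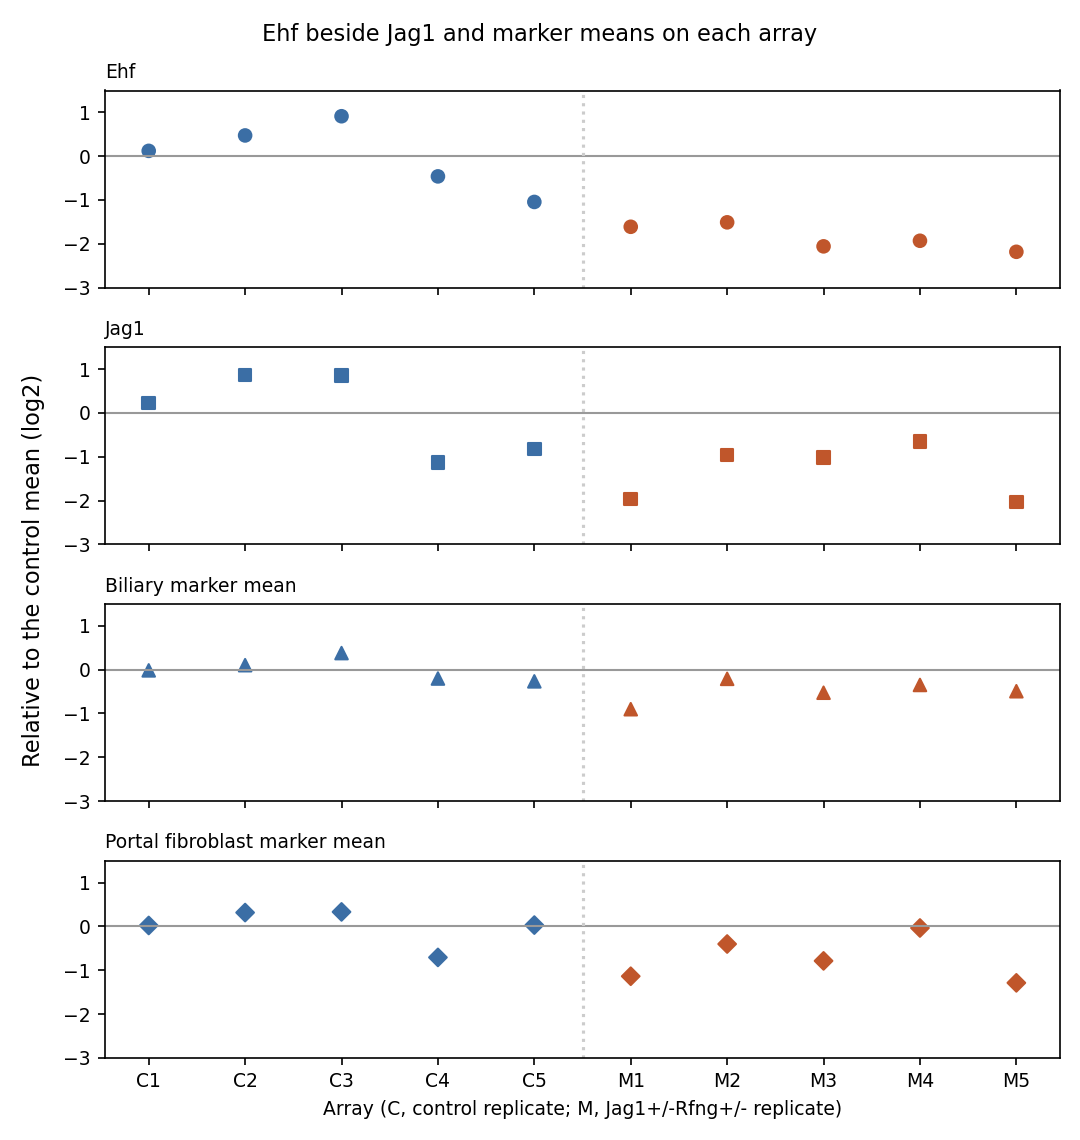
Values on each array relative to the control mean (log2) for Ehf, Jag1, the mean of 12 biliary markers and the mean of 11 portal fibroblast markers, with control (C) in blue and Jag1+/-Rfng+/- (M) in orange. All mutant points of Ehf lie below every control, whereas the groups overlap for Jag1 and for both marker means.

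The 6 brighter genes whose deviations followed Ehf most closely had r of 0.92 to 0.95 over the 10 arrays. They were picked as the highest r among genes with a mean above the median of all 22180 genes. So wide a search over 10 arrays can give such values by chance. The 6 were Fto, an RNA demethylase gene, the predicted gene Gm10353, the RNA-binding protein gene Rbpms, Shkbp1, Abcc9, a subunit of potassium channels, and Nemp2. Between the groups they differed by -0.20 to 0.30 log2, with 0 at an adjusted p under 0.05 (limma) and 0 at an unadjusted p under 0.05.

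Lists of related genes were read beside the members. Of the 21 other ETS genes measured, 13 averaged lower and 8 higher, with a median of -0.05 log2. By limma 0 passed the adjusted threshold and 2 had an unadjusted p under 0.05, beside 6.76% of all genes. Etv5, a target of fibroblast growth factor signalling, was read by the brighter of its 2 probe sets. It differed by -0.53 ± 0.20 log2 (SE), from 6.21 ± 0.39 (SD, n = 5) in control to 5.68 ± 0.31 (SD, n = 5), with a limma adjusted p of 0.628. Etv2, the early endothelial factor, differed by 0.28 within the range of absent genes, Spic, a factor of iron-recycling macrophages, by 0.42, and the repressor gene Erf by 0.26 (limma adjusted p = 0.683 to 0.789). The grainyhead-related CP2 genes Tfcp2, Ubp1 and Tfcp2l1 differed by 0.21, 0.04 and -0.03 (limma adjusted p = 0.809 to 0.988).

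Genes known as grainyhead targets split evenly, with 14 of 28 measured lower and 14 higher, a median difference of -0.01, and 0 past the adjusted threshold (limma). At an unadjusted p under 0.05 there were 3 lower and 3 higher, beside 3.79% and 2.98% of all genes. Epcam, the epithelial adhesion gene, read 6.34 ± 0.52 and 5.58 ± 0.51 in control and Jag1+/-Rfng+/- arrays (SD, n = 5 per group), and the receptor-signalling gene Macc1 differed by -0.39 within the range of absent genes. The claudin genes Cldn4 and Cldn3, which form tight junctions, lay in the other direction at 0.52 and 0.30 (limma adjusted p = 0.632 and 0.645). Cdh1, the gene for E-cadherin and the best known Grhl2 target, differed by -0.05.

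Of 16 other epithelial regulators measured, 9 averaged lower and 7 higher, with a median of -0.07. By limma 0 passed the adjusted threshold and 4 had an unadjusted p under 0.05, beside 6.76% of all genes. Klf5, a Krüppel-like factor of epithelial progenitors, had the lowest unadjusted p among them and differed by -0.71 ± 0.17 log2 (SE), from 5.45 ± 0.33 (SD, n = 5) in control to 4.74 ± 0.26 (SD, n = 5), with a limma adjusted p of 0.332. Esrp1, a splicing regulator of epithelia, differed by -0.44 (limma adjusted p = 0.618), with 4 controls and 1 Jag1+/-Rfng+/- array above the range of absent genes. Ovol1 and Trp63 differed by 0.33 and 0.22 with all arrays within that range.

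The lists were chosen with earlier results of these data known, so which of them holds the largest differences is a description only. Mucosal secretory genes, where Ehf, Elf3 and Spdef are often studied, held the largest single differences of the 5 lists. Of 20 measured, 10 averaged lower and 10 higher, with a median of -0.01. By limma 3 lower and 4 higher had an unadjusted p under 0.05, beside 3.79% and 2.98% of all genes. Slpi, a secreted protease inhibitor, rose by 2.35 ± 0.17 log2 (SE) and was the only list gene past the adjusted threshold (limma adjusted p = 0.000331). Muc1, a membrane mucin, differed by -2.08 ± 0.33 (limma adjusted p = 0.0745), Tff3, a trefoil peptide, by 1.81 ± 0.36 (0.217) and Wfdc2, a secreted whey acidic protein family member, by -0.64 ± 0.25 (0.663). Muc1 and Tff3 thus lay in opposite directions.

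**Figure D4:**
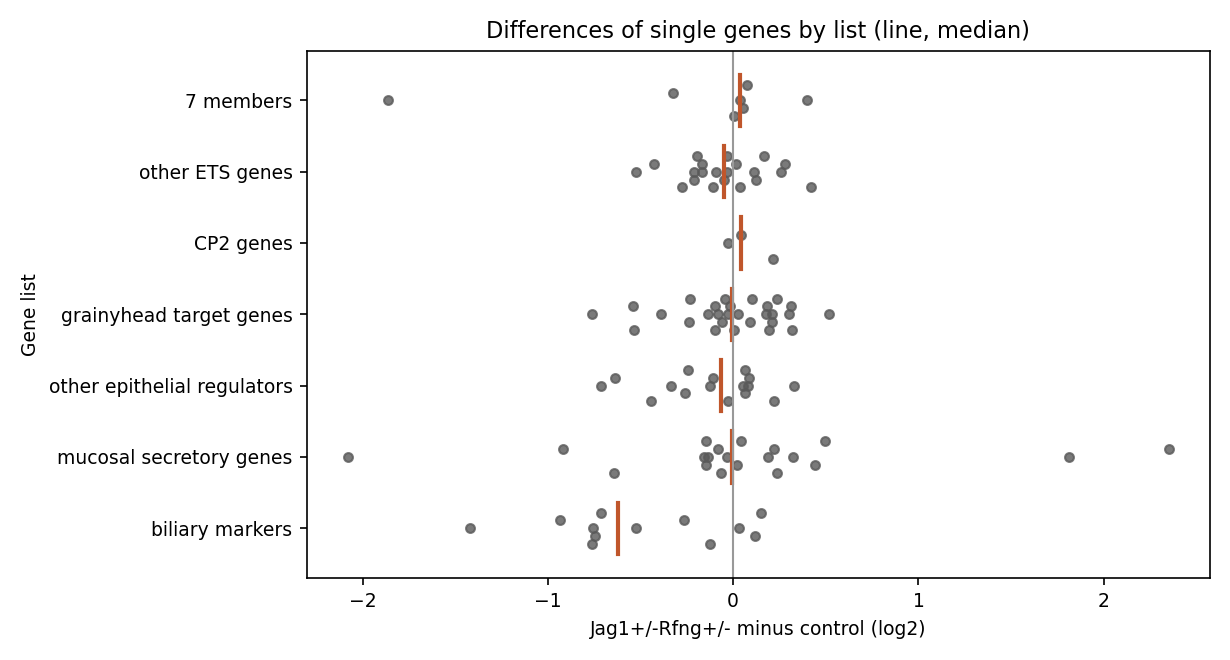
Difference of each gene, Jag1+/-Rfng+/- minus control (log2), for the 7 members, the 5 lists of related genes and the biliary markers. Each point is a gene, its height within a row has no meaning, and the orange line is the median of the list; the medians of the 5 related lists lie between -0.07 and 0.04, and that of the biliary markers at -0.62.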

How the data were processed

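The log2 expression values of 33649 probe sets on 10 arrays were deposited by the authors; RMA and Partek 6.6 are listed without a role, per the submitters' processing notes. RMA commonly equalizes the arrays' distributions and compresses the folds of dim genes. Array data have no depth, and the number of arrays limits precision. Symbols came from the platform annotation: 23521 probe sets had 1 symbol, 1814 several and 8314 none. The set with the highest mean was taken for genes with several, giving 22180 genes; each member had 1. Chromosomes and gene order came from RefSeq's GRCm38.p6 table by Entrez identifier; 5 of 7 members matched its promoter table.

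Groups and replicate numbers came from the sample titles. limma 3.58.1 in R 4.3.3 (lmFit, eBayes without trend, two-sided, Benjamini-Hochberg over all genes) was tested on simulated data first. Single members also had an exact permutation test over 252 divisions of the arrays, two-sided. Members and lists (13 lists, 161 entries, 149 measured) were chosen with earlier results of these data known. Named genes were the members, Jag1, Rfng, list genes past the threshold, the 4 lowest p-values of each list (marker lists are mostly summarized), the 6 genes most like Ehf and 2 neighbours a side; Cdh1 and the other biliary markers were named outside the rule, after their values were seen. Alternatives were leaving out arrays, a replicate block, the shared-number arrays, weights, eBayes settings, normalization, a filter, probe set means and marker covariates. A comparison of member proteins was planned and not run.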

Additional observations from a re-analysis of the deposited data

Results flagged for a closer look

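Of 156 groups of 5 arrays checked for the named genes, 10 held an array far from the others, where chance alone would give about 1 in 20. Among the members this was Spdef on Jag1+/-Rfng+/- replicate 2, at 3.88 against 4.08 to 4.16 on the other arrays of its group. On the same array Esrp1 read 3.42 against 2.90 to 3.05. On Jag1+/-Rfng+/- replicate 5, the array that stood apart, Trp63 read 2.88 against 2.65 to 2.72, Cd24a 11.08 against 9.47 to 9.81 and Aqp1 8.22 against 7.06 to 7.37. The smooth muscle gene Cnn1 read 6.45 on Jag1+/-Rfng+/- replicate 4 against 3.15 to 3.61. Kdr read 7.004 on control 5 against 6.84 to 6.88, and Wt1 3.69 on control 4 against 3.35 to 3.42. Pdhx, near Ehf, read 4.48 on control 4 against 3.77 to 3.95, and 3.18 on Jag1+/-Rfng+/- replicate 1 against 3.76 to 3.93.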

How the results depend on the processing

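None of the 6 tested members passed the adjusted threshold under any of the alternatives in which it was tested. Leaving out each array gave differences of -2.12 to -1.63 for Ehf, 0.31 to 0.51 for Elf3, -0.036 to 0.044 for Elf5, 0.015 to 0.085 for Spdef, -0.032 to 0.19 for Grhl1, -0.41 to -0.24 for Grhl2 and -0.0064 to 0.15 for Grhl3. Ehf moved by more than its spread with the biliary covariate (-1.16) and with both covariates, which were added after seeing the data (-1.16). The sign of Grhl2 turned there, at 0.033 and 0.023. Elf5 turned with array weights (-0.033), quantile normalization (-0.0039), median centring (-0.0087), the biliary (-0.14), portal fibroblast (-0.074) and both (-0.14) covariates and the shared-number arrays without Jag1+/-Rfng+/- replicate 5 (-0.045). Spdef turned with the same covariates (-0.063, -0.021 and -0.065) and those arrays (-0.0055). The cause was not tested.

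The replicate numbers do not pair the samples (same-numbered correlations -0.23 to 0.06). With the replicate block Elf3 differed by 0.40 (limma adjusted p = 0.768) and Grhl2 by -0.32 (0.776), and 2 genes were called.

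The count of genes past the threshold, 2 in all, ranged from 2 to 6 on leaving out an array, with 5 without control 4, 4 without control 5 and 6 without Jag1+/-Rfng+/- replicate 2. It was 5 with array weights, 11 with trend and robust eBayes, 11 among genes above the median level, 3 with quantile normalization, and 1 with each covariate setting. In the shared-number arrays without replicate 5 it was 0 by limma, with 1215 genes at an unadjusted p under 0.05. The mucosal secretory list then had 0 calls, and 2 with trend and robust eBayes and among the genes above the median level, which drops Elf3, Elf5, Grhl1 and Grhl2. With the 99th percentile of receptor values (5.03) as the limit, 6 members in place of 2 lay within the range of absent genes on all arrays.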
